A study of Mus musculus with 48 samples.

Results

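The subject is the interaction of a Huntington's disease allele with the genotype labelled Msh3-/-: how far the effect of Q140 on striatal RNA differed between mice with that label and mice labelled as carrying no Msh3 mutation. The value tested for each gene was (Q140 Msh3-/- minus Msh3-/-) minus (Q140 minus WT), in log2 units. It used 31 of the 48 libraries of the series, chosen by genotype label alone: WT (n = 7), Q140 (n = 8), Msh3-/- (n = 8) and Q140 Msh3-/- (n = 8). Each library is the corpus striatum of a C57BL/6 mouse aged 6 months, and the 31 are 15 females and 16 males. Q140 mice are heterozygous knock-in animals whose own Htt gene carries the expanded CAG repeat, so no transgene promoter is involved. The Msh3-/- groups are homozygous for a Msh3 allele in all cells, and the design of that allele is not given in the sources used here. The remaining 17 libraries, Msh3+/- (n = 9) and Q140 Msh3+/- (n = 8), enter only where they are named. F or M with a number is a library's sex and replicate number in the labels. Separate animal codes in the labels are the only sign that the libraries are separate mice, and the p-values measure the spread between libraries.

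Huntington's disease is caused by an expanded CAG repeat in Htt, and the repeat goes on lengthening in some body cells during life, above all in neurons of the striatum. Msh3 is a mismatch repair protein that recognises small DNA loops and is known to drive this somatic expansion. The cells most affected are medium spiny neurons (MSNs), the GABAergic projection neurons that make up most of the striatum, which carry either the dopamine receptor Drd1 (direct pathway) or Drd2 (indirect pathway) and lose the RNA of many identity genes in Q140 mice. Repeat length was not measured in these files.

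The 31 libraries held 33.7 M to 52.6 M counts each (median 44.9 M), and their trimmed mean scaling factors lay between 0.97 and 1.09. The factors differed by group: 1.01 to 1.09 in Q140, and 0.97 to 1.02 over WT, Msh3-/- and Q140 Msh3-/-. Genes too low to test held 0.0383% of the counts, and the biological coefficient of variation over all 48 libraries was 10.3%. No library repeated the values of another.

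Msh3 reads did not fall in the groups labelled Msh3-/-. In CPM (counts divided by the scaled size of the library), Msh3 (chr13:92211872-92355003 on GRCm38, protein coding) lay between 29.1 and 33.0 in WT (median 31.1), between 29.5 and 33.2 in Q140 (median 32.5), between 111 and 131 in Msh3-/- (median 117) and between 118 and 135 in Q140 Msh3-/- (median 123). The genotype classes were separated in every library, in the direction opposite to a loss of transcript. A count over the whole gene cannot tell a functional from a non-functional transcript. Group names below are therefore the labels' names, and every direction along Msh3 rests on them. The Q140 effect on Msh3 was 0.05 on Msh3+/+ and 0.06 on Msh3-/-, and its interaction was 0.01 (SE 0.05, edgeR adjusted p = 0.94). Htt, the gene that holds the repeat, had 204 to 213 CPM in WT (median 209), 170 to 213 in Q140 (192), 201 to 215 in Msh3-/- (208) and 191 to 234 in Q140 Msh3-/- (217). The 4 ranges overlap, and the Htt interaction of 0.18 (SE 0.06) did not pass the test (edgeR adjusted p = 0.0878).

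The effect of Q140 on RNA differed between the Msh3 backgrounds in 478 genes, and in 476 of them it was the smaller on Msh3-/-. These 478, of 19975 genes tested, had an interaction past an adjusted p of 0.05 (edgeR quasi-likelihood test, Benjamini-Hochberg over all genes), which is 2.39%. In 334 genes (1.67%) it was positive, and these are genes whose RNA was lower in Q140 than in WT. In 144 genes (0.721%) it was negative, and these are genes that were higher in Q140. All 478 interactions had the sign opposite to the Q140 effect on Msh3+/+, and none added to it. Both values contain the Q140 and WT libraries, so this opposition is in part a matter of arithmetic. Such a sign can come with a smaller effect on Msh3-/- or with a larger one of opposite direction, which was so in 2 of the genes.

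In the 334 genes with a positive interaction, the median Q140 effect was -0.41 on Msh3+/+ and -0.06 on Msh3-/-. For the 144 negative ones, the medians were 0.30 and 0.02. The effect on Msh3-/- kept its sign at a smaller size in 264 of the 334 and 87 of the 144, and lay on the other side of 0 in the other 70 and 57. The interactions themselves were moderate, with a median size of 0.32, and 74 of the 478 reached 1.5-fold and 30 reached 2-fold. The median standard error over all genes was 0.11. Genes with positive interactions were abundant (median average log2 CPM 6.60, against 3.36 over all tested genes and 4.24 for the negative ones) and long (median span 44.1 kb, against 16.8 and 12.9 kb). The 2043 genes that fell in Q140 against WT, from which all 334 come, already had medians of 5.93 and 41.2 kb, and the 1926 that rose had 4.12 and 16.3 kb.

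**Figure D1:**
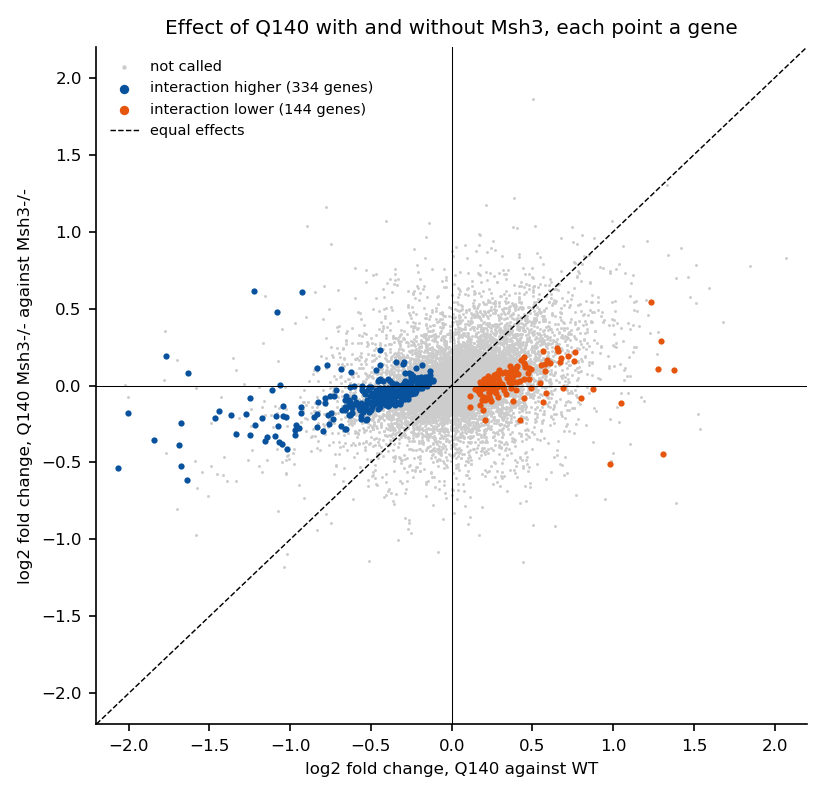
Each point is a gene, with its log2 fold change for Q140 against WT on the horizontal axis and for Q140 Msh3-/- against Msh3-/- on the vertical axis, and the dashed line marks equal effects. The 478 genes past the interaction test lie along the horizontal axis, left of 0 for the 334 positive interactions and right of 0 for the 144 negative ones. The axes end at 2.2 in either direction, which leaves out 4 genes past the test and 14 others.

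Each side of the interaction was also counted alone. Q140 against WT changed 3969 genes (19.9%), of which 2043 fell and 1926 rose. Q140 Msh3-/- against Msh3-/- changed 15 (0.0751%), with 1342 at an unadjusted p under 0.05 and 26 by DESeq2. The count of 15 went down to 5 without Msh3-/- M2, to 7 without Msh3-/- M4 or Q140 Msh3-/- F3, to 8 without Msh3-/- F2 and to 9 without Q140 Msh3-/- F1. Msh3-/- against WT, in the absence of Q140, changed only 6 genes (0.03%), with 807 at an unadjusted p under 0.05. In the presence of Q140 the same genotype contrast changed 2374 genes (11.9%). In the 478 genes, the median effect of Msh3-/- without Q140 was -0.03 for the positive class and 0.04 for the negative class, and with Q140 it was 0.31 and -0.23. Of the genes that fell in Q140, 16.3% had an interaction past the test, and of those that rose, 7.37%. Those that fell by 2-fold or more reached 46.2% (37 of 80), and those that rose by 2-fold or more reached 10% (6 of 60). The latter were lower (median average log2 CPM -1.60 against 0.17), with larger standard errors (median 0.46 against 0.33). The Q140 effect is a term of the interaction, so a higher share at larger effects is in part built in. The balance of signs also depended on scaling: library totals gave 254 positive and 775 negative interactions.

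Genes were also chosen on a contrast that holds none of the 31 libraries. The expression filter, scaling, sex term and spread behind that contrast still came from all 48 libraries. Q140 changed 1289 genes on the Msh3+/- background (6.45%), in libraries that belong to neither side of the interaction. Of these, 697 fell. Their median Q140 effect was -0.21 on Msh3+/-, -0.29 on Msh3+/+ and -0.08 on Msh3-/-, and 619 were called on Msh3+/+ and 4 on Msh3-/-. Their interaction was positive in 97.0% and past the test in 236 (33.9%), each time positive. The 592 that rose had medians of 0.25, 0.24 and 0.08 in the same order. Their interaction was past the test in 79 (13.3%), each time negative. Among the 18686 genes that Q140 did not change on Msh3+/-, 163 were past the test (0.872%). These genes were also lower, with a median average log2 CPM of 3.20, against 6.45 for those that fell and 3.74 for those that rose. This choice of genes was added after the data had been seen.

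**Figure D2:**
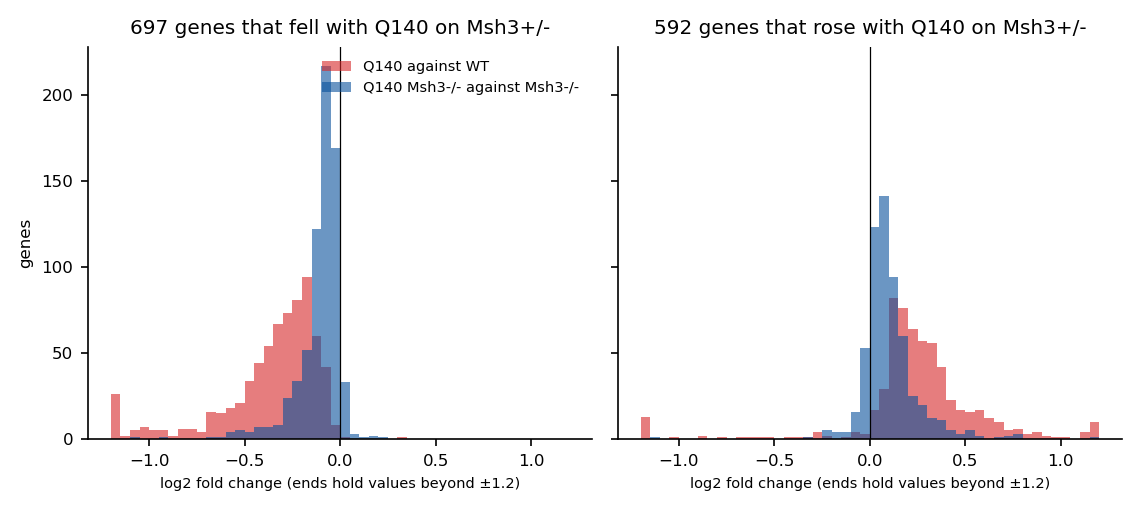
Histograms of the log2 fold change of Q140 on Msh3+/+ (red) and on Msh3-/- (blue) for the 697 genes that fell and the 592 genes that rose with Q140 on Msh3+/-, counted per bin, with the end bins holding values beyond 1.2. The blue distributions lie closer to 0 than the red ones, with medians of -0.08 against -0.29 and 0.08 against 0.24.

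Identity genes of the MSN held the largest share of calls among the lists. The list of 37 pan-MSN genes holds signalling proteins, channels and enzymes that both MSN types share. All 37 were tested, 35 of them fell in Q140 against WT, and 22 (59.5%) had a positive interaction past the test, with none negative. The median interaction was 0.31, against -0.01 over all tested genes, and the median Q140 effect was -0.42 on Msh3+/+ and -0.11 on Msh3-/-. The Q140 effect was smaller in size on Msh3-/- in 37 of 37, against 14092 of 19975 over all genes. Of the 35 that fell, 22 had a called interaction (62.9%), against 16.3% of all genes that fell in Q140 and 36.5% of those that fell by 1.5-fold or more. The pan-MSN genes were more abundant than all genes that fell (median average log2 CPM 9.21 against 5.93). Their median Q140 effect was also larger in size (-0.42 against -0.24), and the shares are not matched for either. The list was drawn up with earlier results of these data known, and its count of 22 was 5 when the row of the sample's well was a term in the model. Its mean level per library was 9.15 ± 0.07 log2 CPM in WT (SD, n = 7), 8.69 ± 0.17 in Q140 (n = 8), 9.17 ± 0.03 in Msh3-/- (n = 8) and 9.06 ± 0.07 in Q140 Msh3-/- (n = 8). All 8 Q140 libraries (8.46 to 8.95) lay below all 8 Q140 Msh3-/- libraries (8.97 to 9.13), and the Q140 libraries were the most spread. The Q140 Msh3-/- range overlapped WT (9.07 to 9.23) and lay below Msh3-/- (9.15 to 9.21). In bulk tissue, fewer MSNs and less RNA per MSN cannot be told apart.

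Examples within that group span several kinds of protein. Scn4b, the β4 subunit of voltage-gated sodium channels, had an interaction of 0.67 (SE 0.11, edgeR adjusted p = 0.000911), with a Q140 effect of -0.94 on Msh3+/+ and -0.28 on Msh3-/-. Rgs14, a regulator of G protein signalling, went from -0.78 to -0.08 (interaction 0.70, edgeR adjusted p = 0.000218). Adcy5, the main striatal adenylyl cyclase, went from -0.64 to -0.19, and Ppp1r16b, a regulatory subunit of protein phosphatase 1, from -0.60 to -0.12. These 4 genes kept their call when any 1 of the 31 libraries was left out.

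Markers of each MSN type were counted separately. Of 9 indirect-pathway (D2) markers, 3 had a positive interaction past the test (33.3%, against 2.39% of all genes) and none a negative one. Of the 6 that fell in Q140, 3 were called (50%, against 16.3% of all genes that fell). The D2 median was 0.36, and the count of 3 was 5 without Q140 F3 and 1 with the well row. Penk, the precursor of enkephalin, had an interaction of 0.61 (SE 0.11, edgeR adjusted p = 0.00103) with Q140 effects of -1.02 on Msh3+/+ and -0.41 on Msh3-/-. Drd2 itself went from -0.56 to -0.19, and the orphan receptor Gpr6 from -0.54 to -0.16. Of 12 direct-pathway (D1) markers, 2 were positive and 1 was negative (25% called), with 1 of the 3 calls left with the well row. The 2 positive ones were the only D1 markers that fell in Q140. Drd1 went from -0.57 to -0.13 (interaction 0.44, SE 0.07, edgeR adjusted p = 0.000305), and the muscarinic receptor Chrm4 from -0.55 to -0.14. Isl1, a transcription factor of developing direct-pathway neurons, rose in Q140 (0.34) and had an interaction of -0.29 (edgeR adjusted p = 0.0159). The D1 list as a whole had a median interaction of 0.06, and of -0.0003 when libraries were scaled by their totals. Whether the lists differ from each other was not tested.

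Intracellular signalling genes with a call were also all positive. The 9 lists of signalling, receptor and channel genes described next hold 276 tested genes, of which 50 were called (18.1%, against 2.39% of all genes); 19 of these 50 belong to the MSN lists as well. Of their 134 genes that fell in Q140, 49 were called (36.6%, against 16.3% of all genes that fell). These shares are not matched for level or for size of the Q140 effect. Among 32 protein kinase and phosphatase genes of the synapse, 11 had a positive interaction (34.4%) and none a negative one, with a median of 0.19. Prkcb, a protein kinase C isoform, went from -0.66 to -0.14. Camk2b, a subunit of the calcium/calmodulin-dependent kinase II, went from -0.30 to -0.04, and the related pseudokinase Camkv from -0.30 to -0.03. In the cAMP and DARPP-32 list, 7 of 30 were positive (23.3%) and none negative, 4 of the 7 being MSN genes already counted; the median was 0.14, and 0.09 when libraries were scaled by their totals. Among them were the phosphodiesterases Pde10a and Pde1b, which break down cyclic nucleotides: Pde10a went from -0.76 to -0.25 and Pde1b from -0.52 to -0.22. Ppp3ca, the catalytic subunit of calcineurin, went from -0.42 to -0.10. Of 30 Rgs, Ras and Rap regulators, 5 were positive (16.7%, and 5 of the 19 that fell in Q140) and none negative, 3 of the 5 being MSN genes already counted (median 0.21), with Rgs4 at -0.77 and -0.19 and Rgs9, the regulator of dopamine receptor signalling, at -0.54 and -0.12. Of 30 activity-regulated genes, 3 were positive (10%, and 3 of the 14 that fell) and none negative (median 0.30): Homer1, a postsynaptic scaffold (interaction 0.67), the immediate early transcription factor Egr3 (0.51) and Inhba, a subunit of activin (0.55). Inhba sat just inside the threshold (edgeR adjusted p = 0.0496) and lost its call in 28 of 31 omissions of a library, and Egr3 lost it in 5.

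Receptors and channels were also represented. Of 37 striatal G protein-coupled receptors, 8 had a positive interaction (21.6%, and 8 of the 20 that fell in Q140) and none a negative one (median 0.26), and besides the dopamine and muscarinic receptors they include the metabotropic glutamate receptor Grm5 (-0.41 to -0.08). Of 50 potassium channel subunits, 8 were positive (16.0%, and 8 of the 19 that fell) and none negative, with a median of 0.13, and of 0.07 when scaled by library totals. Kcnh3, Kcnh4 and Kcna4 went from -0.42 to -0.07, from -0.66 to -0.16 and from -0.25 to 0.03. Of 33 sodium and calcium channel subunits, 6 were positive and 1 was negative (21.2% called, against 2.39% of all genes). Of the 17 that fell in Q140, 6 were called. The median of the list was 0.10, and 0.04 when scaled by library totals. The pair Cacng4 and Cacng7, auxiliary subunits of AMPA receptors, had opposite signs. Cacng4 fell in Q140 (-0.38 to -0.04) and Cacng7 rose (0.20 on Msh3+/+ and -0.08 on Msh3-/-, interaction -0.28, edgeR adjusted p = 0.00238). Ionotropic receptor lists held 1 call each. The kainate receptor subunit Grik2 (interaction 0.39) was called among 18 glutamate receptor subunits (5.56%). The δ subunit Gabrd (0.36) was called among 19 GABA and glycine receptor subunits (5.26%). Over all genes the share was 2.39%, and 1 call in so short a list says little. The counts of these lists depended on single libraries. Without Q140 M4 the receptor count went from 8 to 16 and the Rgs, Ras and Rap count from 5 to 12, and without Q140 F1 they were 5 and 3. The activity-regulated count of 3 was 5 without Q140 M4 and 1 without Q140 F1. With the well row as a term, no kinase and phosphatase, potassium channel or activity-regulated gene passed, and the counts were 1 for the receptors and 2 each for the cAMP, the Rgs, Ras and Rap and the sodium and calcium channel lists.

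**Figure D3:**
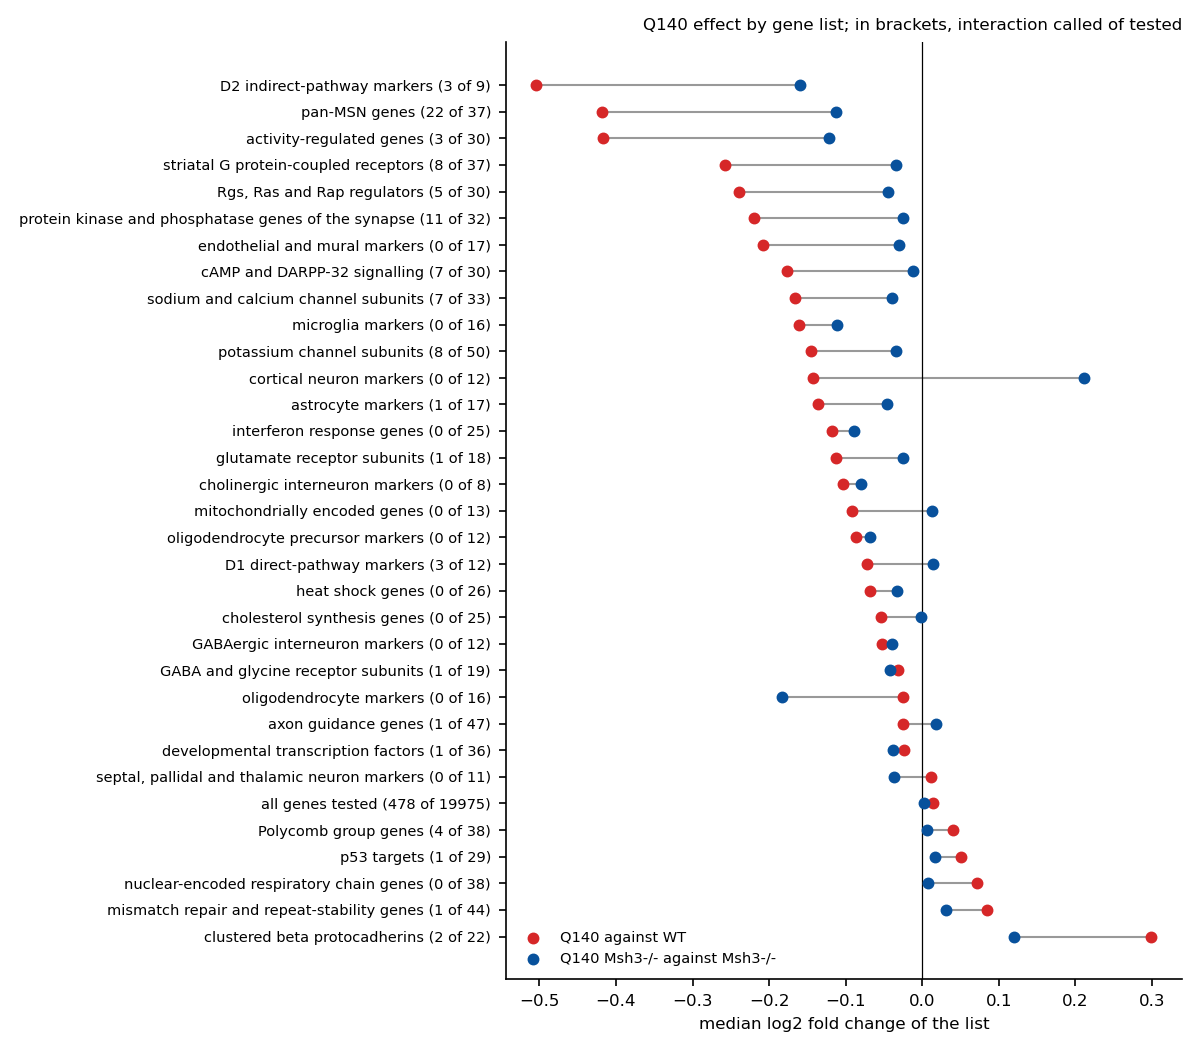
Median log2 fold change of each gene list for Q140 against WT (red) and for Q140 Msh3-/- against Msh3-/- (blue), with the number of genes past the interaction test and the number tested in brackets. The D2 markers (-0.50 to -0.16), the pan-MSN genes (-0.42 to -0.11) and the activity-regulated genes (-0.42 to -0.12) sit farthest from 0 in red and closer to it in blue, and all tested genes sit at 0.01 and 0.00. Choroid plexus and blood genes are not drawn.

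Above a mean log2 CPM of 2, the largest positive interactions belonged to genes of low to moderate level. Fgf3, which encodes a secreted fibroblast growth factor (chr7:144838083-144844436 on GRCm38), had 3.48 to 6.52 CPM in WT (median 5.56), 1.30 to 2.69 in Q140 (2.10), 2.71 to 6.59 in Msh3-/- (4.35) and 2.40 to 5.02 in Q140 Msh3-/- (3.73). Every Q140 library lay below every WT and every Msh3-/- library, and Q140 overlapped Q140 Msh3-/- by a narrow margin. Its interaction was 1.27 (SE 0.20, edgeR adjusted p = 0.000218). Ddit4l, an inhibitor of mTORC1 signalling (chr3:137621612-137628333), had 30.0 to 40.0 CPM in WT (35.7), 6.63 to 18.4 in Q140 (10.3), 31.9 to 41.6 in Msh3-/- (36.9) and 15.6 to 29.5 in Q140 Msh3-/- (24.2). The Q140 Msh3-/- libraries lay between the other groups: all were below every Msh3-/- library, and their lowest overlapped the highest of Q140. Ddit4l was 1 of 4 genes with both an interaction past the test (1.03, SE 0.19, edgeR adjusted p = 0.00189) and a Q140 effect past the test on Msh3-/- (-0.61, edgeR adjusted p = 0.0393).

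Mas1, a receptor for angiotensin-(1-7), and Slc4a11, a membrane transporter, had a similar pattern. Mas1 ranged from 5.88 to 8.68 CPM in WT (median 6.53), 1.91 to 4.29 in Q140 (3.03), 4.92 to 8.51 in Msh3-/- (6.37) and 3.79 to 6.13 in Q140 Msh3-/- (5.64). Slc4a11 ranged from 10.5 to 17.6 CPM in WT (15.7), 3.70 to 7.69 in Q140 (5.80), 10.5 to 19.4 in Msh3-/- (14.4) and 8.63 to 16.5 in Q140 Msh3-/- (11.5). For Slc4a11 the Q140 libraries were below all 23 others of the 4 groups. The interactions were 0.96 (SE 0.20, edgeR adjusted p = 0.00399) and 1.02 (SE 0.24, edgeR adjusted p = 0.0133).

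Gpx6, a glutathione peroxidase, had 5.37 to 10.3 CPM in WT (median 8.98), 1.39 to 3.53 in Q140 (2.66), 6.61 to 10.04 in Msh3-/- (7.97) and 2.90 to 8.84 in Q140 Msh3-/- (5.60). The Q140 Msh3-/- libraries were widely spread, from within the Q140 range to within the WT range, and the interaction was 1.16 (SE 0.28, edgeR adjusted p = 0.0178). Dusp14, a phosphatase that acts on MAP kinases, had 29.1 to 79.1 CPM in WT (50.8), 14.5 to 41.8 in Q140 (25.3), 27.1 to 58.9 in Msh3-/- (41.4) and 26.1 to 74.7 in Q140 Msh3-/- (37.6). All 4 ranges overlapped. Its interaction of 1.07 (SE 0.31, edgeR adjusted p = 0.0495) lost its call in 20 of 31 omissions of a library, with an adjusted p of 0.102 without WT F3.

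**Figure D4:**
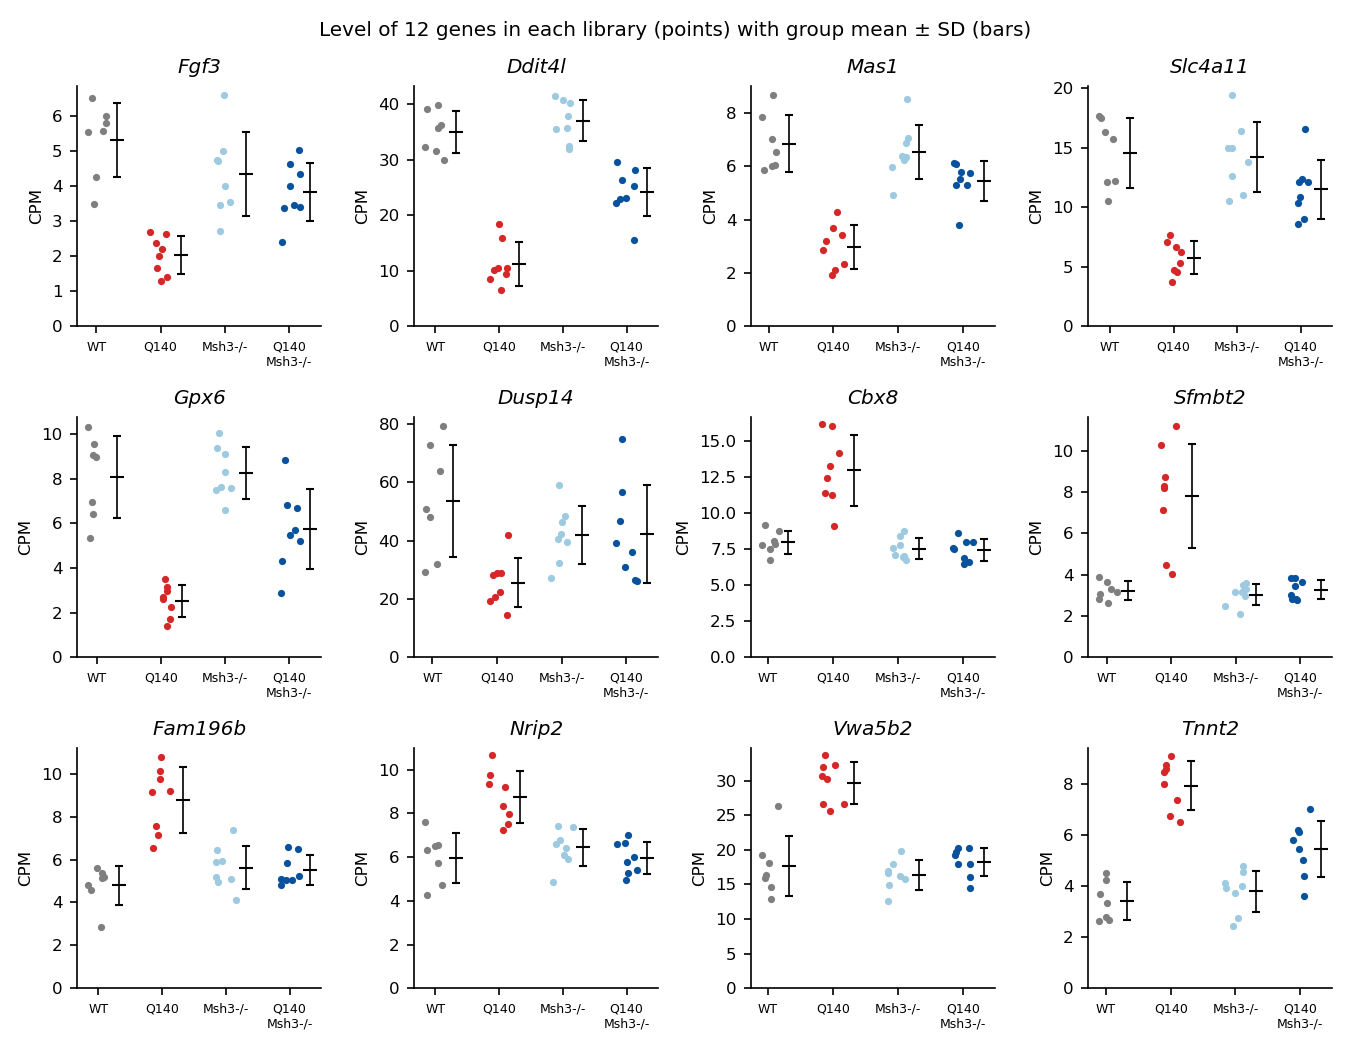
CPM of 12 genes in each library of the 4 groups (points), with the group mean and SD beside them; axes start at 0. The 6 genes from Fgf3 to Dusp14 are lower in Q140 (for example 6.63 to 18.4 CPM of Ddit4l, against 30.0 to 40.0 in WT), and the 6 from Cbx8 to Tnnt2 are higher (for example 4.03 to 11.2 CPM of Sfmbt2, against 2.63 to 3.90). The Q140 Msh3-/- median of each gene is nearer to that of Msh3-/- than to that of Q140, though 4 of the 8 libraries for Ddit4l and 3 of 8 each for Gpx6, Dusp14 and Tnnt2 are nearer to the Q140 median.

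Between a mean log2 CPM of 0 and 2, the largest positive interactions past the test were those of Mafa, a transcription factor best known from pancreatic beta cells (1.83, SE 0.27, edgeR adjusted p = 0.000218), Aoah, an enzyme that inactivates bacterial lipopolysaccharide (1.53), the acyltransferase-like Dgat2l6 (1.44), the secreted ligand Wnt8b (1.31), Atp6v1c2, a subunit of the vacuolar proton pump (0.96), and Il2rb, a chain of the interleukin 2 receptor (0.92). Aoah had a Q140 effect of -2.06 on Msh3+/+ and -0.54 on Msh3-/-, and Dgat2l6 of -1.68 and -0.24. All were low, with average log2 CPM between 0.18 (Aoah) and 1.78 (Atp6v1c2). Wnt8b, Il2rb and Atp6v1c2 lost their call in 3, 5 and 9 omissions of a library, with adjusted p up to 0.0728 (without WT M4), 0.0614 (without Q140 F1) and 0.0759 (without Q140 Msh3-/- F2). Some of the smallest p-values fell to genes of higher level and smaller change than these, among them Ankrd35 (0.67, SE 0.10, edgeR adjusted p = 0.000218), the atypical MAP kinase Mapk4 (0.40, SE 0.06, edgeR adjusted p = 0.000218) and the transcriptional repressor Zbtb18 (0.49, SE 0.08, edgeR adjusted p = 0.0007). Mapk4 went from -0.42 to -0.02, so that little of its Q140 effect was left on Msh3-/-, while Ankrd35 went from -1.05 to -0.38.

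Some Polycomb group genes stood among the negative interactions. Polycomb complexes are chromatin repressors that keep developmental genes silent. Of 38 members, 4 had a negative interaction past the test (10.5%, against 0.721% of all genes) and none a positive one. With the well row, 2 of the 4 were left. The list as a whole had a median of -0.02, and 17 of its 38 interactions were positive. In Q140 against WT, 7 members rose and 5 fell. Sfmbt2, a Polycomb protein with MBT domains (chr2:10370510-10595253), had 2.63 to 3.90 CPM in WT (median 3.15), 4.03 to 11.2 in Q140 (8.24), 2.11 to 3.59 in Msh3-/- (3.15) and 2.79 to 3.84 in Q140 Msh3-/- (3.22). All 8 Q140 libraries lay above all others of the 4 groups. Its interaction, -1.16 (SE 0.21, edgeR adjusted p = 0.00103), was the most negative of those named. Cbx8, a chromodomain subunit of Polycomb repressive complex 1 (chr11:119036305-119040969), had 6.76 to 9.18 CPM in WT (7.88), 9.10 to 16.2 in Q140 (12.8), 6.75 to 8.73 in Msh3-/- (7.35) and 6.49 to 8.63 in Q140 Msh3-/- (7.56). The Q140 range met that of WT at its lowest library only, and the interaction was -0.71 (SE 0.12, edgeR adjusted p = 0.000731). Bmi1, another subunit of that complex, had a small interaction of -0.21 (edgeR adjusted p = 0.0424) and lost its call in 17 of 31 omissions of a library, with an adjusted p of 0.0845 without Q140 F1.

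Other negative interactions belonged to genes of varied function. Fam196b had 2.86 to 5.60 CPM in WT (median 5.14), 6.54 to 10.8 in Q140 (9.17), 4.12 to 7.36 in Msh3-/- (5.53) and 4.82 to 6.56 in Q140 Msh3-/- (5.15), with an interaction of -0.90 (SE 0.18, edgeR adjusted p = 0.00295). Nrip2, a nuclear receptor-interacting protein, had 4.29 to 7.59 CPM in WT (6.35), 7.25 to 10.7 in Q140 (8.80), 4.87 to 7.44 in Msh3-/- (6.52) and 4.96 to 7.01 in Q140 Msh3-/- (5.90), with an interaction of -0.67 (SE 0.14, edgeR adjusted p = 0.00539). In both genes the Q140 Msh3-/- median lay within the WT range.

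Vwa5b2 had 12.9 to 26.3 CPM in WT (16.3), 25.6 to 33.7 in Q140 (30.5), 12.7 to 19.9 in Msh3-/- (16.5) and 14.5 to 20.3 in Q140 Msh3-/- (18.6), with an interaction of -0.60 (SE 0.15, edgeR adjusted p = 0.024). Tnnt2, the cardiac form of troponin T, had 2.65 to 4.51 CPM in WT (3.36), 6.50 to 9.08 in Q140 (8.24), 2.44 to 4.79 in Msh3-/- (3.97) and 3.63 to 7.03 in Q140 Msh3-/- (5.62). Its Q140 Msh3-/- libraries overlapped both Q140 and the groups without Q140. The Tnnt2 interaction of -0.69 (SE 0.19, edgeR adjusted p = 0.0396) lost its call in 17 of 31 omissions of a library, with an adjusted p of 0.0766 without WT M1. The other genes among the 12 most negative were AW495222 (-0.88), Efcab7 (-0.64), Dleu7 (-0.63), the mitochondrial enzyme-like Echdc2 (-0.54), the bHLH factor Hes6 (-0.53) and the retinol dehydrogenase Rdh12 (-0.53). Of these, only Echdc2 kept its call in all 31 omissions; the calls of AW495222, Efcab7, Dleu7, Hes6 and Rdh12 were lost in 19, 2, 20, 9 and 18, with adjusted p up to 0.085 (without Msh3-/- M2), 0.0583 (without Q140 M1), 0.0933 (without Q140 F1), 0.0682 (without Msh3-/- M3) and 0.0887 (without WT M1).

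The remaining lists held 2 calls or fewer. Of 22 clustered beta protocadherins, cell-surface recognition proteins of neurons, 2 had a negative interaction and none a positive one (median -0.16). The share was 9.09%, against 0.721% of all genes with a negative interaction, and the count was 1 with the well row. The 2 were Pcdhb3 (0.67 on Msh3+/+ and 0.15 on Msh3-/-, edgeR adjusted p = 0.00948) and Pcdhb22 (0.43 and 0.17, edgeR adjusted p = 0.0419, lost in 17 omissions, up to 0.0927 without Q140 M1). Counts of such similar genes can be split between copies. Among 44 mismatch repair and repeat-stability genes, 1 was past the test (2.27%, against 2.39% of all genes), the clamp loader subunit Rfc2 (interaction -0.21, edgeR adjusted p = 0.0374, lost in 16 omissions, up to 0.0828 without WT M4), and the list's median was -0.07. Other lists had single calls at shares near that of all genes (2.13% of axon guidance genes, 2.78% of developmental factors and 3.45% of p53 targets) or, for astrocyte markers, 5.88%. They were Ddit4l among 29 p53 targets, Mafa among 36 developmental transcription factors, Sema4g among 47 axon guidance genes (-0.32, lost in 19 omissions, up to 0.0973 without Q140 F1) and Ppp1r3c, a glycogen-targeting phosphatase subunit, among 17 astrocyte markers (0.31, lost in 9, up to 0.0702 without WT F3). In 15 lists no member passed the edgeR test. They hold 251 tested genes, of which 22 had an unadjusted p under 0.05, a smaller share than the 3053 of 19975 over all tested genes. DESeq2 called 2 of the cholesterol synthesis genes, 1 nuclear-encoded respiratory chain gene and 1 mitochondrially encoded gene among them.

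**Figure D5:**
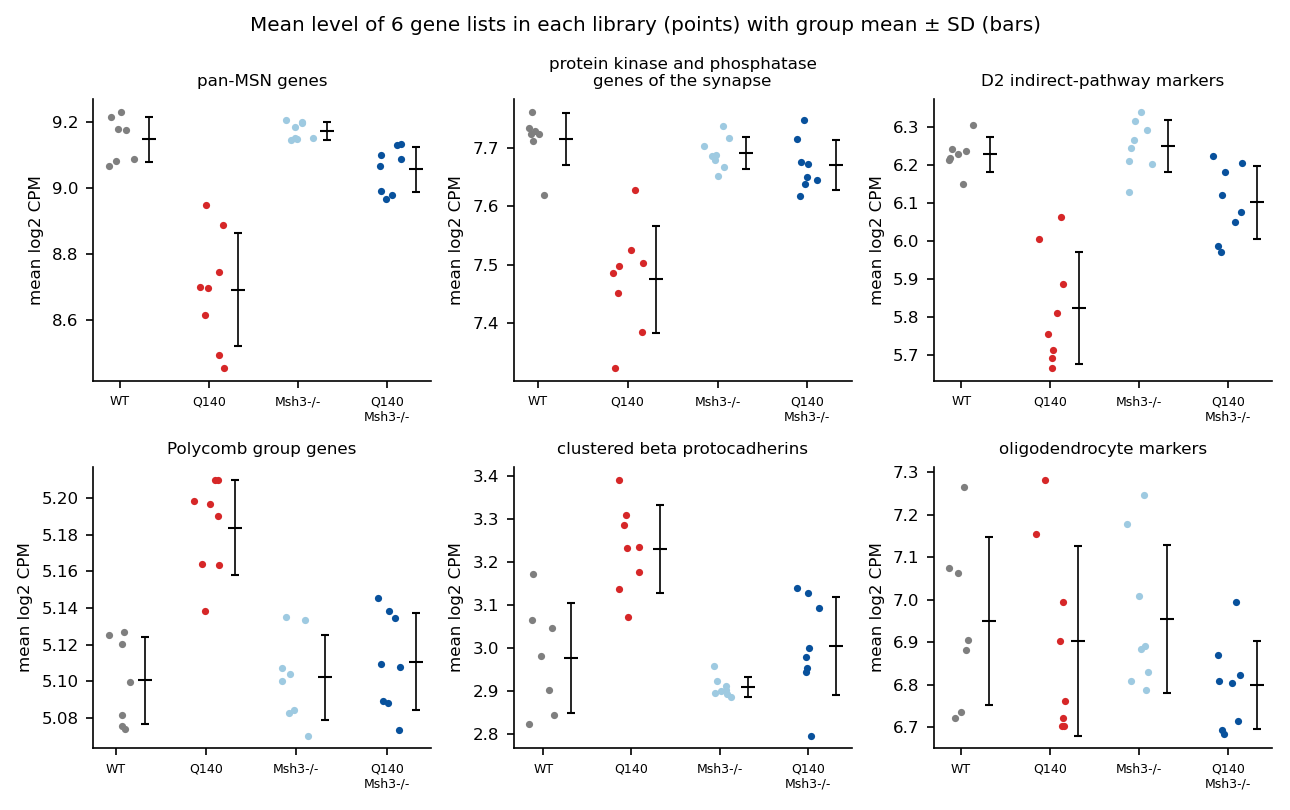
Mean log2 CPM of 6 gene lists in each library of the 4 groups (points), with the group mean and SD beside them; the vertical axes do not start at 0. Pan-MSN genes are at 8.46 to 8.95 in Q140 and 8.97 to 9.13 in Q140 Msh3-/-, while oligodendrocyte markers overlap in all 4 groups (6.70 to 7.28 in Q140 and 6.68 to 6.99 in Q140 Msh3-/-).

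Markers of other cell types were measured beside these groups. None of 16 oligodendrocyte markers passed the interaction test, 2 of 16 interactions were positive and the median was -0.13; their mean level was 6.72 to 7.27 log2 CPM in WT, 6.70 to 7.28 in Q140, 6.79 to 7.25 in Msh3-/- and 6.68 to 6.99 in Q140 Msh3-/-. Of 17 endothelial and mural markers all 17 interactions were positive (median 0.18) and none passed; their mean level was 4.48 to 4.61 in WT, 4.19 to 4.47 in Q140, 4.44 to 4.61 in Msh3-/- and 4.43 to 4.54 in Q140 Msh3-/-. Of 12 cortical neuron markers 10 were positive (median 0.37) and none passed, with mean levels of 1.24 to 2.75 in WT, 1.26 to 2.23 in Q140, 1.09 to 1.86 in Msh3-/- and 1.16 to 2.63 in Q140 Msh3-/-. Choroid plexus and ependymal markers had a median of 1.09, and of 0.55 without WT M2, with mean levels of -1.35 to 2.82 in WT and of -0.68 to 1.16 in the other 3 groups; none of 15 passed. Of 17 astrocyte markers, 8 fell in Q140 against WT and 13 interactions were positive (median 0.08). An unadjusted p under 0.05 was found in 7 of the 17, against 3053 of 19975 over all tested genes. The mean level of astrocyte markers was 7.00 to 7.16 in WT, 6.78 to 7.03 in Q140, 6.92 to 7.20 in Msh3-/- and 6.98 to 7.11 in Q140 Msh3-/-. All 5 blood genes had positive interactions (median 1.46, and 0.84 without Q140 Msh3-/- F1), none with an unadjusted p under 0.05, and their mean level overlapped in all 4 groups (-4.62 to 1.87 in WT and -5.35 to 0.32 in Q140). No marker of these lists was at 0 in every library, and their part in the interaction was not tested. The defining MSN genes Drd1, Drd2, Penk and Adcy5 were abundant in the tissue, with average log2 CPM of 8.17, 8.03, 10.6 and 10.7.

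Where Q140 still had an effect on Msh3-/-, it was with 1 exception the smaller of the pair. All 15 genes called on Msh3-/- were called in the same direction on Msh3+/+, and in 14 the effect on Msh3-/- was smaller in size. Its size was between 36.0% and 103% of that on Msh3+/+, with a median of 60.0%. The 15 were chosen for passing on Msh3-/-, which favours larger effects there. For the genes chosen on Msh3+/-, the median effect on Msh3-/- was 26.8% (fell) and 33.2% (rose) of the median on Msh3+/+. The following genes are named after their values were seen. Of the 10 genes that rose, none had an interaction past the test: Lrrn3, a leucine-rich repeat neuronal protein, rose by 0.33 (SE 0.05) on Msh3-/- and by 0.53 on Msh3+/+, and the serotonin receptor Htr2c by 0.40 (SE 0.07) and 0.64. Lrrtm4, a synaptic adhesion protein, rose by 0.21 and 0.20, and was the gene without a smaller effect. Bcl11a, a transcription factor of developing MSNs, rose by 0.15 and 0.23. Of the 5 that fell, 4 had an interaction past the test (Penk, Ankrd35, Ddit4l and Pde1b), and Papss2, an enzyme of sulfate metabolism, fell by 0.21 on Msh3-/- and 0.26 on Msh3+/+ with an interaction of 0.05 (edgeR adjusted p = 0.779).

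In 2 of the 478 genes the Q140 effect on Msh3+/+ did not pass the test. Rfxank, a regulator of MHC class II genes, had Q140 effects of 0.11 (edgeR adjusted p = 0.0844) and -0.14, and Gm527 of 0.20 (edgeR adjusted p = 0.075) and -0.22. Their interactions of -0.25 and -0.43 rest on values of opposite sign, neither of which passed alone, and they lost their call in 1 and 8 omissions of a library (adjusted p up to 0.0574 without Q140 F1 and 0.0681 without Q140 Msh3-/- F2). No gene passed both Q140 effects with opposite signs.

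Genes on either side of Msh3 were examined apart. AW495222 lies on the same chromosome (chr13:93706182-93719175) and was the 1 gene past both the interaction test and the effect of Msh3-/- without Q140. It had 1.16 to 2.10 CPM in WT (median 1.61), 2.29 to 3.49 in Q140 (2.73), 0.497 to 1.07 in Msh3-/- (0.705) and 0.421 to 1.11 in Q140 Msh3-/- (0.591). Both Msh3-/- groups lay below both Msh3+/+ groups. The Q140 effect was 0.80 on Msh3+/+ and -0.08 on Msh3-/-. The interaction was -0.26 in females and -1.53 in males. Within 5 Mb on either side of Msh3, 2 of 59 tested genes had an interaction past the test (3.39%), AW495222 and Homer1, and within 20 Mb 4 of 216 (1.85%), against 2.39% of all genes. The effect of Msh3-/- without Q140 was 1.95 for Msh3 and -1.14 for AW495222. For the neighbours Rasgrf2, Cmya5, F2r and Sv2c, named after their values were seen, it was -1.43, -0.90, 1.06 and -0.28. None of these neighbours had an interaction past the test.

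The interaction with the genotype labelled Msh3+/- was tested for comparison. Its formula, (Q140 Msh3+/- minus Msh3+/-) minus (Q140 minus WT), shares the Q140 and WT libraries with the main one. No gene passed the edgeR test (0%), 1621 had an unadjusted p under 0.05, DESeq2 called 19, and 24 passed without Q140 M4. In the 334 and 144 genes of the Msh3-/- interaction, the Msh3+/- interaction had medians of 0.18 and -0.15. The difference between the interactions, in which WT and Q140 cancel, also had no gene past the test by edgeR (0%) or DESeq2, with 1220 at an unadjusted p under 0.05. Taken with the sign of the Msh3-/- interaction, that difference had a median of 0.15 in the 478 genes, and it was above 0 in 474 of them. These 478 were chosen on the Msh3-/- value, which is part of the difference.

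Female and male mice were also compared. All 478 had the same sign in both sexes, and with that sign the median was 0.32 in females and 0.34 in males; the genes were chosen on the value over both sexes, which largely fixes this. Tested within a sex, 1 gene passed in females (0.00501%) and 145 in males (0.726%, 110 positive and 35 negative). The sex difference of the interaction passed in no gene by edgeR (0%) or DESeq2, with 1612 at an unadjusted p under 0.05. WT has 3 females and 4 males.

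The number of genes past the test varied with single libraries. It was 262 without Q140 F1, 276 without Q140 M1, 286 without Q140 Msh3-/- F2, 302 without WT M4 and 935 without Q140 M4, and between 340 and 671 without any other single library. Q140 F1 and M1 had the lowest pan-MSN levels of the 8 Q140 libraries (8.49 and 8.46), and Q140 M4 and F3 the highest (8.95 and 8.89). In the same order, their trimmed mean scaling factors were 1.08, 1.09, 1.01 and 1.02. With the row of the sample's well in the model, 64 genes passed, 62 of them among the 478. Of the 69 named genes with a called interaction, 20 kept the call in that fit and 49 lost it. All 478 kept their sign there, 475 had an unadjusted p under 0.05, and their median signed interaction was 0.29 against 0.32. The 478 were chosen on the interaction in these same libraries, which largely fixes all of this. The groups were spread unevenly over rows, and the Q140 Msh3-/- and Msh3-/- libraries shared row A only. On that side of the interaction, row and genotype can hardly be told apart. Leaving out WT F3 and WT M2 together, which stood apart in microglia and interferon genes and in choroid plexus genes, gave 314. The split into signs depended on scaling: 69.9% of the called genes were positive with trimmed mean scaling, and 24.7% of 1029 when libraries were scaled by their totals, where the median interaction over all genes was -0.07 instead of -0.01. In each of these fits, every gene past the test had the sign opposite to its Q140 effect on Msh3+/+.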

How the data were processed

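Gene counts from bulk RNA of the striatum were analysed in 48 mouse libraries. Per the labels' protocols, RNA was extracted with an RNeasy kit and libraries were made with a stranded TruSeq protocol. The submitters' processing notes name STAR 2.7.5c, SAMtools 1.10, HTSeq 0.12.3 and the builds GRCm38 and mm10; the annotation and strand setting of the counting are not given in the sources used here. The authors deposited raw counts per gene, which were used as they stand, and FPKM values, which served only as an alternative, as log2(FPKM + 0.1) and log2(FPKM + 1). Positions come from the GENCODE M21 annotation of GRCm38.

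Groups were taken from the genotype labels, and the members, gene lists and rules were chosen with earlier results of these data known. Of 48795 genes, 19975 passed edgeR's expression filter (minimum count 10, minimum total 15). Counts were scaled by trimmed means (TMM) and fitted with edgeR 4.0.16 (robust quasi-likelihood, R 4.3.3) over all 48 libraries, with 6 groups and sex as covariate. Each contrast was tested two-sided, with Benjamini-Hochberg adjustment across the 19975 genes, and an adjusted p under 0.05 is a call. A standard error is the log2 value divided by the square root of F. CPM values use the scaled library sizes. The depth, 33.7 M to 52.6 M counts per library in the 4 groups, limits precision mainly for genes of low level. The script was tested on simulated counts.

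Named are Msh3 and Htt, the 12 most positive and 12 most negative interactions and the 10 smallest p among called genes with a mean log2 CPM of 0 or more whose symbol is not a clone's. From each list, at most 4 genes past the test are named, or at most 2 as values. Some genes that this rule names are not reported here. Also named are genes called in the interaction but not for Q140 on Msh3+/+, or called for Msh3-/- without Q140. Per-library ranges are given for the 6 largest each way with average log2 CPM of at least 2. Alternatives were other scaling (RLE, library totals), DESeq2 1.42.0, limma 3.58.1 (voom, FPKM), linear CPM, other filters, fewer samples, other covariates and leaving out each library. Lists are described by counts and medians, with no set test.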

Additional observations from a re-analysis of the deposited data

Results flagged for a closer look

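Over the levels of all lists and the 12 genes given by library, 184 sets of libraries of 1 group were examined, and 10 times the highest or lowest library stood far from the others. Chance flags about 5%. For gene lists the values are mean log2 CPM. Q140 M2 was low in activity-regulated genes (3.75, the next library being at 4.26), and Q140 F4 was low in axon guidance genes (4.91, next 5.03), as was Q140 Msh3-/- M4 (5.03, next 5.09). WT F3 stood apart in 4 places: GABA and glycine receptor subunits (5.15, next 5.46), interferon response genes (2.40, next 1.42), microglia markers (5.01, next 4.74) and the CPM of Fam196b (2.86, next 4.60). WT F2 was low in synaptic kinase and phosphatase genes (7.62, next 7.71). Q140 M1 was low in microglia markers (4.26, next 4.48). Q140 Msh3-/- M1 was low in Mas1 (3.79 CPM, next 5.29).

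Neither Fam196b (interaction -0.953 to -0.798) nor Mas1 (0.899 to 1.09) lost its call when any 1 library was left out.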

How the results depend on the processing

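Of the 69 named genes with a called interaction, 49 kept the call when any 1 library was left out. The other 20 lost it at least once, with adjusted p up to 0.102. None of the 69 changed sign under any setting, which their choice as called genes in these same libraries largely fixes. The counts were as follows without 1 library. The called interactions ranged from 262 to 935, the positive ones from 189 to 635 and the negative ones from 73 to 300. The Q140 effect ranged from 3242 to 4468 genes on Msh3+/+, from 5 to 17 on Msh3-/- and from 1237 to 1339 on Msh3+/-. The Msh3-/- effect ranged from 5 to 7 without Q140 and from 1664 to 2936 with it, and the Msh3+/- interaction from 0 to 24.

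Scaling by library totals gave 1029 called interactions, 775 of them negative, with 6178, 4263 and 2206 genes for Q140 on Msh3+/+, Msh3-/- with Q140 and Q140 on Msh3+/-. The deposited FPKM gave 1145 (883 negative) with 6030, 4280 and 2188 at a pseudocount of 0.1, and 1190 (933 negative) with 6074, 4343 and 2177 at 1, and 1 gene for the Msh3+/- interaction at either. DESeq2 gave 763 (531 positive, 232 negative), 26 for Q140 on Msh3-/- and 19 for the Msh3+/- interaction. No filter gave 280 (205 and 75) and 9 for Q140 on Msh3-/-. The well row, under which 49 of the 69 named calls were lost, gave 64 (39 and 25), 2 for Q140 on Msh3-/- and 553 on Msh3+/-. Linear CPM gave 277 (153 positive) and 9. Leaving out WT F3 and M2, chosen after seeing the data, gave 314 (79 negative) and 9. The count for Q140 on Msh3-/- was 9 with no sex covariate, 7 with only the 4 groups and 8 with the well column. The cause was not tested. RLE scaling (487), voom with an animal-code block (531), voom with group weights (543, chosen after seeing the data), a stricter filter (618), no sex covariate (423), only the 4 groups (345) and the well column (376) left the count within 1.5 times.

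The interaction of Msh3, near 0, changed sign with library totals (-0.04908), the well column (-0.01078), FPKM + 0.1 (-0.04359) and FPKM + 1 (-0.02064), and ranged from -0.003727 to 0.03532 without 1 library. Among genes not called, a pair changed sign as well: Hba-a2 with the voom block (-0.0679) and C1qb without WT F3 and M2 (-0.000231).

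The labels number replicates within each sex. Over 45 pairs of libraries with the same number, the correlation of their deviations had a median of -0.02 (range -0.44 to 0.41), and 15 were over 0.1. Over 135 pairs with different numbers the median was also -0.02, and 30 were over 0.1. For 8 pairs with the same animal-code stem the median was 0.01, and 3 were over 0.1. Of 31 libraries, 8 correlated best with their own number. The replicate block gave 475 called interactions, 421 of them among the 478.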

Other observations

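Some lists without a called gene are described here for their direction. Of 38 nuclear-encoded respiratory chain genes, 8 rose and 1 fell in Q140 against WT, and the median Q140 effect was 0.07 on Msh3+/+ and 0.01 on Msh3-/-. The interaction was positive in 5 of 38 (median -0.05). An unadjusted p under 0.05 was found in 4 of the 38, against 3053 of 19975 over all tested genes. Cyc1 and Uqcrfs1, subunits of complex III, had Q140 effects of 0.20 and 0.12 on Msh3+/+ and interactions of -0.16 each (edgeR adjusted p = 0.0966 and 0.0705). Scaling by library totals moved this median to -0.11. Of 13 mitochondrially encoded genes, 10 interactions were positive (median 0.08), and mt-Nd6 had 0.38 (SE 0.11, edgeR adjusted p = 0.0602).

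Cholesterol synthesis genes were mixed: 4 fell and 4 rose with Q140 on Msh3+/+. Srebf2, the transcription factor that controls the pathway, had Q140 effects of -0.24 and -0.05 with an interaction of 0.19 (edgeR adjusted p = 0.0625), and Tm7sf2, an enzyme of the pathway, 0.30 and 0.04 with an interaction of -0.26 (edgeR adjusted p = 0.051). Heat shock and interferon response genes had median interactions of 0.01 and -0.04. The interferon median ran from -0.16 without WT F3 to 0.19 without Msh3-/- M1. Around Htt, 3 of 152 tested genes within 5 Mb had an interaction past the test (1.97%), and 7 of 358 within 20 Mb (1.96%), against 2.39% of all genes.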
